A study of Mus musculus with 11 samples.

Results

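Retinoic acid is made, broken down and sensed by a small group of enzymes, binding proteins and nuclear receptors, and 10 of these genes were followed in the developing mouse face at embryonic day (E) 10.5. They are the retinaldehyde dehydrogenases *Aldh1a1*, *Aldh1a2* and *Aldh1a3*, which carry out the last step of synthesis, the cytochrome P450 enzymes *Cyp26a1*, *Cyp26b1* and *Cyp26c1*, which oxidize retinoic acid and so remove it, the receptors *Rara*, *Rarb* and *Rarg*, and the cytoplasmic binding protein *Crabp1*. The 10 genes were chosen by name as members of the pathway and each symbol matched 1 Ensembl identifier among the 38561 genes counted. All 10 passed the filter on low counts and were among the 17317 genes tested.

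Retinoic acid acts as a local signal. Cells that express an ALDH1A enzyme make it from retinaldehyde, neighboring cells that express a CYP26 enzyme clear it, and the balance sets where the retinoic acid receptors (RARs), bound to DNA together with retinoid X receptors (RXRs), switch their targets on. *Rarb* and *Cyp26a1* are themselves well-known direct targets of these receptors. In the early face, retinoic acid is made in the nasal and eye regions, and both too much and too little of it are known to cause clefts.

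RNA from explants of the facial processes, taken from the nasal processes and from both parts of the first branchial arch, was compared between wild-type embryos (wt, 2 libraries), embryos homozygous for a *Rspo2* mutation (Rspo2KO, 3 libraries), embryos homozygous for a *Wnt9b* mutation (Wnt9bKO, 3 libraries) and embryos homozygous for both (DKO, 3 libraries), all on a mixed strain background. WNT9b is a WNT ligand of the facial ectoderm and RSPO2 is a secreted protein of the mesenchyme that strengthens WNT signaling. The mutations are present in every cell of the embryo, so no comparison separates the ectoderm from the mesenchyme. The sources used here do not say whether a library came from 1 embryo or from several, so p-values measure the spread between these libraries, which may be technical in part. The wt libraries held 11136166 and 16764595 counts and the mutant libraries 13220768 to 18017344. Levels are given in CPM, the counts scaled to a common library size, with TMM factors, and, where genes are compared with each other, in RPKM, that is CPM per kilobase of exon.

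The targeted genes did not follow every label. *Rspo2* was at 14.8 and 16.0 CPM in wt, 4.73 to 6.58 CPM in the libraries labelled Rspo2KO, and 4.17, 3.67 and 15.5 CPM in the libraries labelled DKO 1, 2 and 3. Wnt9bKO 1, 2 and 3 had 22.8, 2.86 and 18.1 CPM, so Wnt9bKO 2 and DKO 3 went against their labels. *Wnt9b* transcript was not lower in its mutants, at 16.2 to 23.3 CPM in Wnt9bKO and 18.2 to 20.2 CPM in DKO against 10.8 and 13.4 CPM in wt, and since the sources used here do not give the part of the gene that is altered, this level checks nothing. Libraries were kept under their labels, and results that rest on Wnt9bKO 2 or DKO 3 are also given without them. *Xist* was high in wt and DKO only (679 to 1468 CPM, against at most 1.94 CPM) and the Y-linked *Ddx3y* was at 57.5 to 75.7 CPM in Rspo2KO and Wnt9bKO against at most 4.43 CPM in wt and DKO, so that embryo sex and genotype cannot be told apart when Rspo2KO or Wnt9bKO is set against wt or DKO. Summed small nuclear RNAs were at 74.7 to 80.4 CPM in Wnt9bKO and 70.1 to 82.7 CPM in DKO against 351.5 to 353 CPM in wt and 385.1 to 419.2 CPM in Rspo2KO. This difference between libraries followed the *Wnt9b* genotype. What lies behind it and the *Wnt9b* mutation cannot be told apart where Wnt9bKO or DKO is set against wt or Rspo2KO. Markers of facial mesenchyme (7 of 7 measured) and surface epithelium (7 of 7) were present in every library. The mesenchyme markers summed to 899.3 to 944.8 CPM in wt and 668.9 to 733.6 CPM in Rspo2KO. Their sum was 554.9 to 1127 CPM in Wnt9bKO and 696.7 to 843.4 CPM in DKO. The epithelium markers summed to 261.5 to 269.6 CPM in wt and 234.2 to 283.7 CPM over the mutant libraries.

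In wt facial processes the 10 genes spanned a wide range of levels per length. *Crabp1*, which binds retinoic acid in the cytoplasm, stood at 392 ± 22.6 RPKM (SD, n = 2), far above all other members. *Rarg* followed at 16.5 ± 0.311 RPKM, then *Aldh1a3* at 12.6 ± 0.432, *Rarb* at 8.11 ± 0.224, *Cyp26a1* at 7 ± 1.24, *Cyp26c1* at 4.66 ± 0.777, *Aldh1a1* at 4.36 ± 0.810, *Rara* at 3.42 ± 0.185, *Aldh1a2* at 2.13 ± 0.340 and *Cyp26b1* at 1.87 ± 0.431 RPKM. Neighbors in this order were separated in both wt libraries except *Cyp26c1* and *Aldh1a1*, and *Aldh1a2* and *Cyp26b1*, whose ranges overlapped. Within each role 1 gene led: *Aldh1a3* made up 65.3 to 66.6% of the summed RPKM of the 3 synthesis enzymes, *Cyp26a1* 49.3 to 53.7% of the 3 breakdown enzymes and *Rarg* 58.5 to 59% of the 3 receptors.

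**Figure D1:**
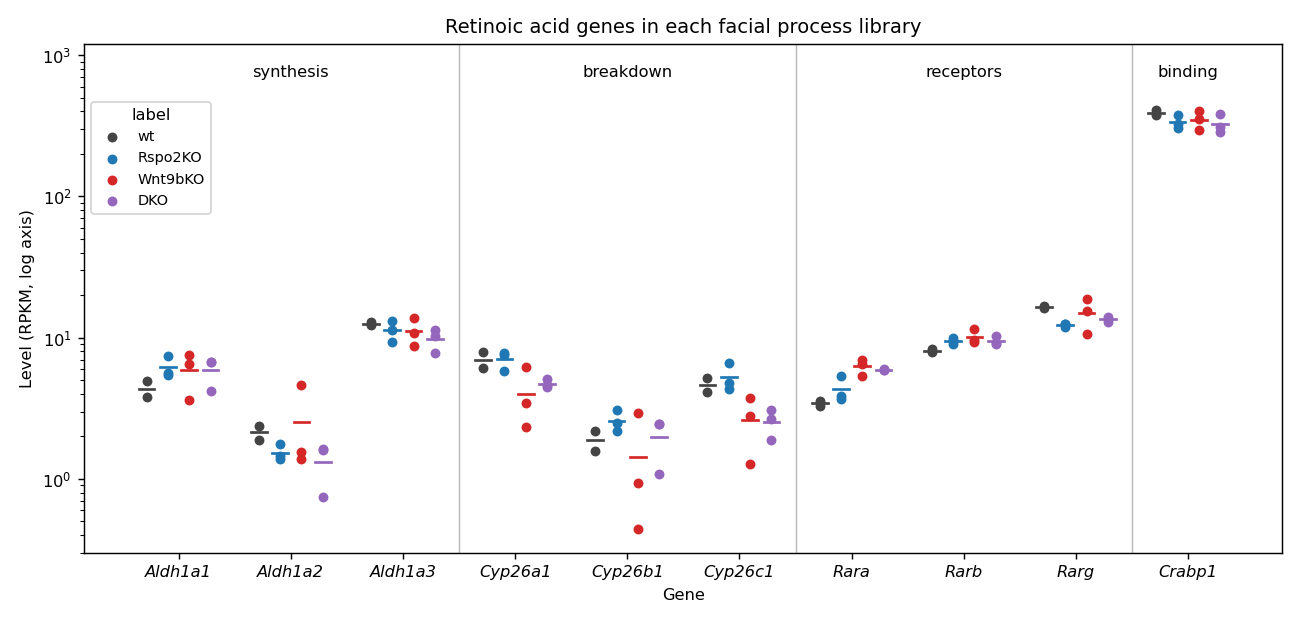
Level of each of the 10 genes in RPKM (log axis) in every library, grouped by role, with 1 point per library and a bar at the mean of each genotype (wt n = 2, the others n = 3). *Crabp1* lies above all other genes in every library. *Rara* is higher in all 6 Wnt9bKO and DKO libraries than in wt, and *Cyp26b1* and *Aldh1a2* spread widely within Wnt9bKO.

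Among the members, *Cyp26a1* and *Rarb* carry in their proximal promoters the element through which RARs act, and their windows are shown for that reason. Promoter windows from RefSeq (GRCm38.p6), each of 300 bases from 250 before to 50 after a transcription start, were found for 9 of the 10 genes, 14 windows in all, and not for *Aldh1a3*. They were searched on both strands for direct repeats of the hexamer AGGTCA, of the variant spelled AGTTCA, of another variant that reads GGGTCA, and of a last one written as GGTTCA, in any combination, with spacers of 1, 2 or 5 bases. Of the 14 windows 2 held such a repeat, and in both the spacer was 5 bases. By comparison, 32 of 32851 mouse promoter windows of this length (0.0974%) held a repeat with a spacer of 5 bases and 193 (0.588%) held any of the repeats. In *Cyp26a1* (window chr19:37697558-37697857, plus strand) the repeat lies at chr19:37697776-37697792, 32 to 16 bases before the start, and reads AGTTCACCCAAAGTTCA on the minus strand. In *Rarb* (window chr14:16575427-16575726, minus strand) it lies at chr14:16575513-16575529, 53 to 37 bases before the start, and reads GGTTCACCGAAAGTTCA on the strand of the gene. Both windows are given 5′ to 3′ on the strand of the gene, with the repeat in capitals. A match of letters is a description and does not show binding.
Cyp26a1: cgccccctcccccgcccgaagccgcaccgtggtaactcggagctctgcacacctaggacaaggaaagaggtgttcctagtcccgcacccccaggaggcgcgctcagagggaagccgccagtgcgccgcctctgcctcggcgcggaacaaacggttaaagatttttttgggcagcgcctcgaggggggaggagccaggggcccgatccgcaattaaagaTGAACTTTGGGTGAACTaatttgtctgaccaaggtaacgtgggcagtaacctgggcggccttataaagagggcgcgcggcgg
Rarb: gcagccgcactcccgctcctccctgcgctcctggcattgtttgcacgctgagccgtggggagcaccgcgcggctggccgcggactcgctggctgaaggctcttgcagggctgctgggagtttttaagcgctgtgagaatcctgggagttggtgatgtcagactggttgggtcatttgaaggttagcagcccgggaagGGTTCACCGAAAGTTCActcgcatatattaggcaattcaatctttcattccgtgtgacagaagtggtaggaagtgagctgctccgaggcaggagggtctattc

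The question set by the design is how the loss of *Wnt9b*, of *Rspo2* or of both altered transcript levels in the face. A gene was called where the adjusted p of edgeR's quasi-likelihood test with Benjamini-Hochberg adjustment over all 17317 genes was below 0.05. In Wnt9bKO 3 of the 10 genes were called against wt, *Rara* and *Rarb* higher and *Cyp26a1* lower, where 32.8% of all genes were called (16.8% higher and 16% lower). In DKO 1 gene, *Rara*, was called higher, where 27.5% of all genes were called (14.3% higher and 13.1% lower). In Rspo2KO none was called by edgeR or by DESeq2. Of all genes, edgeR called 0.0346% there (0.0289% higher and 0.00577% lower) and DESeq2 1.4%. At an unadjusted p below 0.05 in edgeR's test there was 1 member, *Rarg*. *Rspo2* itself was not called in Rspo2KO by edgeR (log2 fold change -1.53 ± 0.64 (SE), adjusted p = 0.358). A lack of calls there therefore does not show a lack of change. Counts this small, out of 10 members, do not set them apart from all genes in Wnt9bKO or in DKO. The median log2 fold change of the 10 genes was -0.15 in Wnt9bKO, 0.10 in Rspo2KO and -0.28 in DKO, beside 0.013, 0.001 and 0.015 over all genes tested.

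A threshold for differentially expressed genes (DEGs) was modelled on the study's methods, which do not say whether p was adjusted, and was read here as a change over 1.5-fold with an unadjusted p below 0.05. By it 3 members passed in Wnt9bKO (*Rara* higher, *Cyp26a1* and *Cyp26c1* lower), where 24.8% of all genes passed, and 2 in DKO (*Rara* higher, *Cyp26c1* lower), where 20.4% passed. In Rspo2KO 0 members passed in edgeR and in DESeq2, beside 4.68% of all genes in edgeR. Without the libraries labelled Wnt9bKO 2 and DKO 3, 4 members were called in Wnt9bKO, with *Cyp26c1* as the fourth, beside 29.7% of all genes, and 1 in DKO, beside 25.6%.

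**Figure D2:**
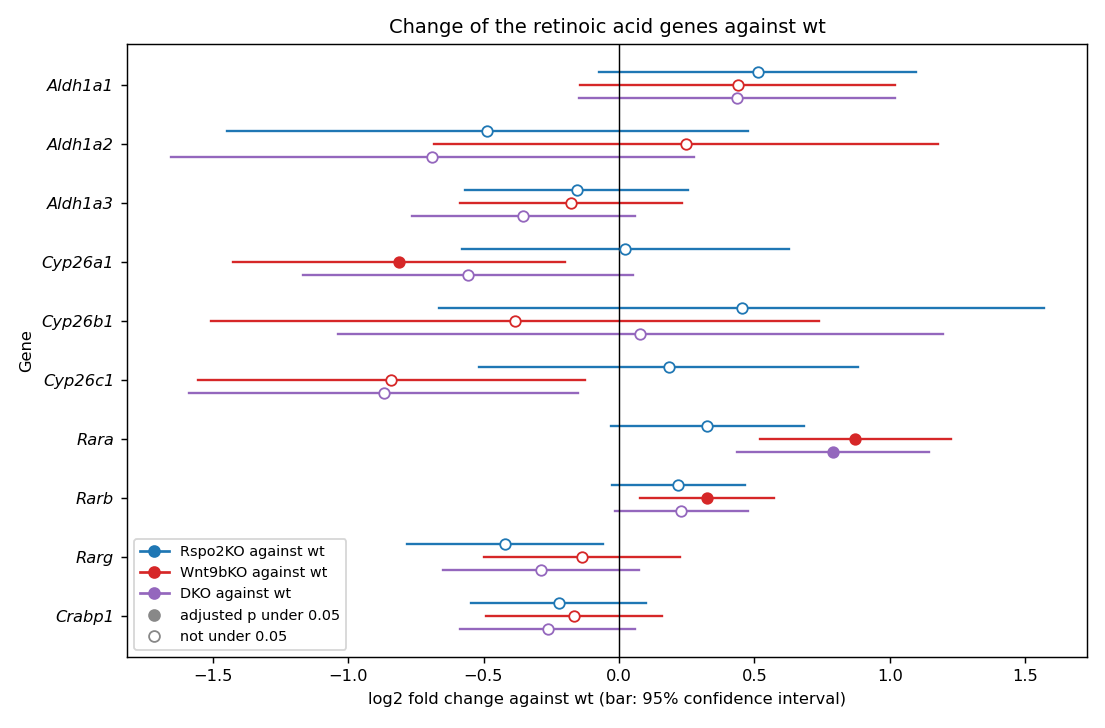
Log2 fold change of each gene against wt in Rspo2KO, Wnt9bKO and DKO, with bars for the 95% confidence interval from the fit to all 11 libraries. Filled points, which have an adjusted p below 0.05, are *Rara* in Wnt9bKO and DKO and *Rarb* and *Cyp26a1* in Wnt9bKO.

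Among the receptors, *Rara* (ENSMUSG00000037992, chr11:98927818-98974942, plus strand) showed the clearest change. It was at 14.4 and 15.5 CPM in wt, 30.4, 23.5 and 28.3 CPM in Wnt9bKO, 25.7, 26.2 and 25.8 CPM in DKO, and 23.4, 16.1 and 16.9 CPM in Rspo2KO. All 6 libraries with a *Wnt9b* mutation lay above all wt and Rspo2KO libraries, although Rspo2KO 1 came close to Wnt9bKO 2. The log2 fold change against wt was 0.87 ± 0.17 (SE) in Wnt9bKO, 1.83-fold (95% confidence interval 0.52 to 1.23, adjusted p = 0.00133), and 0.79 ± 0.17 in DKO, 1.73-fold (0.44 to 1.15, adjusted p = 0.00319). In Rspo2KO it was 0.33 ± 0.17, which did not pass (adjusted p = 0.46). These comparisons share the 2 wt libraries. Since this is RNA of whole tissue, more cells that express *Rara* and more *Rara* RNA per cell cannot be told apart.

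The call of *Rara* passed under each of the 21 other ways of processing, with log2 fold changes of 0.79 to 0.999 in Wnt9bKO (adjusted p at most 0.0252) and 0.73 to 0.88 in DKO (adjusted p at most 0.0476). Without the libraries labelled Wnt9bKO 2 and DKO 3 the values were 0.97 and 0.79. With an offset for GC content and gene length they were 0.96 and 0.88.

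*Rarb* (ENSMUSG00000017491, chr14:16430839-16819156, minus strand) changed less. The promoter window shown above lies inside the gene as annotated, whereas the counts are those of the whole gene, whatever the transcription start. *Rarb* was at 43.5 and 41.9 CPM in wt, 60.3, 49.4 and 50.7 CPM in Wnt9bKO, 54.1, 47.8 and 48.3 CPM in DKO, and 47.1, 52.2 and 49.8 CPM in Rspo2KO. Every mutant library was above both wt libraries, and the mutant genotypes overlapped each other. Against wt it changed by a log2 fold change of 0.32 ± 0.12 in Wnt9bKO (adjusted p = 0.043), 0.23 ± 0.12 in DKO (adjusted p = 0.154) and 0.22 ± 0.12 in Rspo2KO (adjusted p = 0.472), and only the first passed. That call was lost in 11 of 21 alternatives, among them the offset for GC content and gene length (0.23, adjusted p = 0.138) and leaving out Wnt9bKO 1 (0.23, adjusted p = 0.121), either wt library, Rspo2KO 3 or any DKO library (adjusted p 0.0514 to 0.212). *Rarb* overlaps *Top2b* on the other strand, a gene with 6379 to 11114 counts per library, and the sources used here do not say whether strand was used in counting, so reads of *Top2b* in the overlap could enter the *Rarb* counts.

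*Rarg* (ENSMUSG00000001288, chr15:102234938-102257517, minus strand), the most abundant receptor, did not pass in any comparison with wt. It was at 71.0 and 69.2 CPM in wt, 53.0, 50.4 and 53.6 CPM in Rspo2KO, 80.7, 44.9 and 65.5 CPM in Wnt9bKO, and 59.4, 55.1 and 57.6 CPM in DKO. Rspo2KO and DKO libraries all lay below wt, while Wnt9bKO libraries lay on both sides. The summed mesenchyme markers did the same, and their part in the level and share of *Rarg* was not tested. In Rspo2KO the log2 fold change of *Rarg* was -0.42 ± 0.17, the only value among the members there with an unadjusted p below 0.05 in edgeR's test (adjusted p = 0.34). As a share of the summed receptor RPKM, *Rarg* made up 58.5 to 59% in wt against 41.7 to 50.7% over all mutant libraries, and *Rara* made up 11.7 to 12.8% in wt against 18.6 to 21.3% in Wnt9bKO, 19.6 to 21.4% in DKO and 14.5 to 20% in Rspo2KO. *Rarg* stayed the largest of the 3 receptors in every library.

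Among the breakdown enzymes, *Cyp26a1* (ENSMUSG00000024987, chr19:37697798-37701536, plus strand) and *Cyp26c1* (ENSMUSG00000062432, chr19:37685581-37693398, plus strand) lie next to each other, with 4399 bases between them. *Cyp26a1* was at 15.6 and 12.1 CPM in wt, 11.4, 15.5 and 15.0 CPM in Rspo2KO, 4.63, 12.2 and 6.83 CPM in Wnt9bKO, and 9.15, 10.1 and 8.91 CPM in DKO. Wnt9bKO 1 and 3 and all DKO libraries were below wt, whereas Wnt9bKO 2 was at the level of the lower wt library. Its log2 fold change was -0.81 ± 0.29 in Wnt9bKO, 1.76-fold lower (adjusted p = 0.0415), -0.56 ± 0.28 in DKO (adjusted p = 0.163) and 0.02 ± 0.28 in Rspo2KO (adjusted p = 0.986).

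The call of *Cyp26a1* in Wnt9bKO rested on single libraries and on the processing. Without Wnt9bKO 2 the log2 fold change was -1.25 (adjusted p = 0.00122). It did not pass with the GC content and length offset (-0.61, adjusted p = 0.121), with only the 2 groups compared in the model (-0.82, adjusted p = 0.11), or without Wnt9bKO 1 (-0.53, adjusted p = 0.1), Wnt9bKO 3 (-0.70, adjusted p = 0.123), wt 1 (-0.63, adjusted p = 0.25), wt 2 (-0.99, adjusted p = 0.0715), Rspo2KO 2 or 3, or DKO 1 or 2 (adjusted p 0.0517 to 0.0592).

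*Cyp26c1* was at 9.10 and 7.18 CPM in wt, 8.38, 11.6 and 7.57 CPM in Rspo2KO, 2.23, 6.49 and 4.91 CPM in Wnt9bKO, and 3.29, 5.35 and 4.67 CPM in DKO. All 6 libraries with a *Wnt9b* mutation lay below all wt and Rspo2KO libraries. Its log2 fold change was -0.84 ± 0.33 in Wnt9bKO (95% confidence interval -1.56 to -0.13, adjusted p = 0.0671) and -0.87 ± 0.34 in DKO (-1.59 to -0.15, adjusted p = 0.0677), both just short of the threshold, and 0.18 ± 0.33 in Rspo2KO (adjusted p = 0.861). DESeq2 put *Cyp26c1* past the threshold in Wnt9bKO (adjusted p = 0.0447) and in DKO (adjusted p = 0.0385), as did leaving out Wnt9bKO 2 (-1.16, adjusted p = 0.0188, in Wnt9bKO). Against Rspo2KO, DKO was lower by a log2 fold change of -1.05 ± 0.30 (2.08-fold, adjusted p = 0.025).

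*Cyp26b1* (ENSMUSG00000063415, chr6:84571414-84593908, minus strand) varied more within genotypes than between them. It was at 8.39 and 11.6 CPM in wt, 16.5, 13.3 and 11.7 CPM in Rspo2KO, 15.6, 2.38 and 4.97 CPM in Wnt9bKO, and 5.81, 13.2 and 13.0 CPM in DKO. The highest and the lowest Wnt9bKO library enclosed all wt values. The log2 fold change in Wnt9bKO was -0.38 ± 0.53 (adjusted p = 0.609). It was -1.46 without Wnt9bKO 1, where it passed (adjusted p = 0.0101), and 0.06 without Wnt9bKO 2. Summed mesenchyme markers in Wnt9bKO ran from 554.9 CPM in library 2 to 1127 CPM in library 1, and their part in the spread of *Cyp26b1* was not tested. Added over the 3 breakdown genes, the level was 12.4 to 14.65 RPKM in wt and 13.66 to 16.94 RPKM in Rspo2KO, against 6.53 to 10.32 RPKM in Wnt9bKO and 7.58 to 10.61 RPKM in DKO. The same sum over the 3 synthesis genes was 18.42 to 19.7 RPKM in wt and 13.61 to 22.79 RPKM over the mutant libraries. Over the 3 receptors it was 27.74 to 28.23 RPKM in wt and 25.29 to 37.34 RPKM over the mutant libraries. These sums were not tested.

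No synthesis enzyme was called in any comparison by edgeR or by DESeq2, 1 had an unadjusted p below 0.05 (*Aldh1a2* in DKO against Wnt9bKO), and the spread between libraries was wide. *Aldh1a3* (ENSMUSG00000015134, chr7:66390890-66427517, minus strand), the leading enzyme, was at 59.4 and 56.6 CPM in wt, 43.2, 60.7 and 52.0 CPM in Rspo2KO, 49.8, 64.1 and 40.1 CPM in Wnt9bKO, and 47.6, 52.6 and 36.0 CPM in DKO. Its log2 fold change was -0.18 ± 0.19 in Wnt9bKO, with a 95% confidence interval of -0.59 to 0.23, and -0.35 ± 0.19 in DKO (-0.76 to 0.06, adjusted p = 0.19). *Aldh1a1* (ENSMUSG00000053279, chr19:20492715-20643465, plus strand) was at 24.4 and 18.7 CPM in wt, 27.9, 27.0 and 36.7 CPM in Rspo2KO, 32.2, 37.0 and 17.9 CPM in Wnt9bKO, and 33.0, 33.2 and 20.7 CPM in DKO. Its log2 fold changes were 0.44 ± 0.27, 0.51 ± 0.27 and 0.44 ± 0.27 in Wnt9bKO, Rspo2KO and DKO, and none passed (adjusted p 0.234 to 0.48). The third library of Wnt9bKO and of DKO lay near the wt level, apart from the other two of its genotype. Without Wnt9bKO 3 the change of *Aldh1a1* in Wnt9bKO was 0.72 and passed (adjusted p = 0.0312). Markers of the eye field, where *Aldh1a1* and *Aldh1a3* are known to be active, summed to 61.7 to 75.0 CPM in wt, 81.2 to 149.8 CPM in Wnt9bKO, 81.1 to 103.6 CPM in DKO and 71.6 to 79.5 CPM in Rspo2KO, and their part in these levels was not tested.

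*Aldh1a2* (ENSMUSG00000013584, chr9:71215789-71296243, plus strand), the enzyme that supplies retinoic acid to the trunk and early embryo, was low in the face and rested on 27 to 197 counts per library. It was at 4.28 and 5.37 CPM in wt, 3.14, 3.28 and 3.98 CPM in Rspo2KO, 10.5, 3.16 and 3.54 CPM in Wnt9bKO, and 3.70, 1.68 and 3.64 CPM in DKO. Wnt9bKO 1 stood apart from all other libraries, and every other mutant library was below both wt libraries. The log2 fold change in Wnt9bKO was 0.25 ± 0.43 with Wnt9bKO 1 and -0.54 without it, and neither passed (adjusted p = 0.699 and 0.188).

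*Crabp1* (ENSMUSG00000032291, chr9:54764748-54773110, plus strand) was measured with the most counts, 3253 to 5366 per library, and did not pass in any comparison. It was at 327 and 302 CPM in wt, 243, 302 and 262 CPM in Rspo2KO, 236, 283 and 321 CPM in Wnt9bKO, and 228, 250 and 308 CPM in DKO. The 95% confidence intervals of its log2 fold change ran from -0.49 to 0.16 in Wnt9bKO, -0.55 to 0.10 in Rspo2KO and -0.59 to 0.06 in DKO.

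Between mutants, DKO was first set against Wnt9bKO, although DKO 3 and Wnt9bKO 2 went against their labels. Of the 10 genes 0 were called in DKO against Wnt9bKO by edgeR and by DESeq2, beside 0.121% and 0.407% of all genes. In edgeR's test 1, *Aldh1a2*, had an unadjusted p below 0.05 (log2 fold change -0.94 ± 0.40, adjusted p = 0.813), where Wnt9bKO 1 is the library that stood apart. Without Wnt9bKO 2 and DKO 3, 0 members were called by edgeR, beside 0.117% of all genes. With all libraries *Rspo2* itself was not called by edgeR (adjusted p = 0.959). The interval of the *Rara* difference was -0.38 to 0.22, that of *Cyp26a1* -0.30 to 0.81 and that of *Cyp26b1* -0.53 to 1.46. The lack of calls therefore does not show that the 2 genotypes are alike. DKO against Rspo2KO gave 2 called genes, beside 18.2% of all genes: *Rara* was higher in DKO by 0.47 ± 0.14 (adjusted p = 0.0355), and *Cyp26c1* was lower, as given above. Both calls rested on single libraries. Leaving out Rspo2KO 2, DKO 1 or DKO 3 ended the call of *Cyp26c1* (-0.84 to -1.09, adjusted p 0.0552 to 0.136), as did the GC content and length offset (-0.95, adjusted p = 0.0549). The call of *Rara* ended without wt 1, Rspo2KO 2, Rspo2KO 3 or any of the DKO libraries (0.37 to 0.47, adjusted p 0.0604 to 0.157) and without Wnt9bKO 2 and DKO 3 together (0.47, adjusted p = 0.0527).

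A test of the interaction asked whether the change in DKO differed from the sum of the changes in the single mutants on the log2 scale. It sets wt and DKO, all high in *Xist*, against the single mutants, all high in *Ddx3y*. An interaction of the genotypes and a difference by embryo sex therefore cannot be told apart in this test. For the 10 genes 0 were called by edgeR and by DESeq2, beside 0.0635% and 0.225% of all genes. In edgeR's test 0 had an unadjusted p below 0.05. The smallest p values were those of *Rarb*, with an interaction of -0.31 ± 0.15 (adjusted p = 0.541), and *Rara*, with -0.41 ± 0.22 (95% confidence interval -0.87 to 0.06, adjusted p = 0.574). The interval for *Rara* includes 0 as well as values larger in size than its change in Rspo2KO alone.

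The genes whose pattern over the 11 libraries was most like that of the called members were found among 14551 protein-coding genes by the root mean square difference of centered log2 CPM. For *Rara* they were *Dennd2a* (0.065) and *Ptpn11* (0.067), against an SD of *Rara* itself of 0.386. For *Rarb* they were *Rad54b* (0.071) and *Brd9* (0.073), against an SD of 0.143, and for *Cyp26a1* they were *Stum* (0.14) and *Irak1bp1* (0.185), against an SD of 0.531. The members were left out of this search, so *Cyp26c1*, the neighbor of *Cyp26a1*, could not appear in it.

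**Figure D3:**
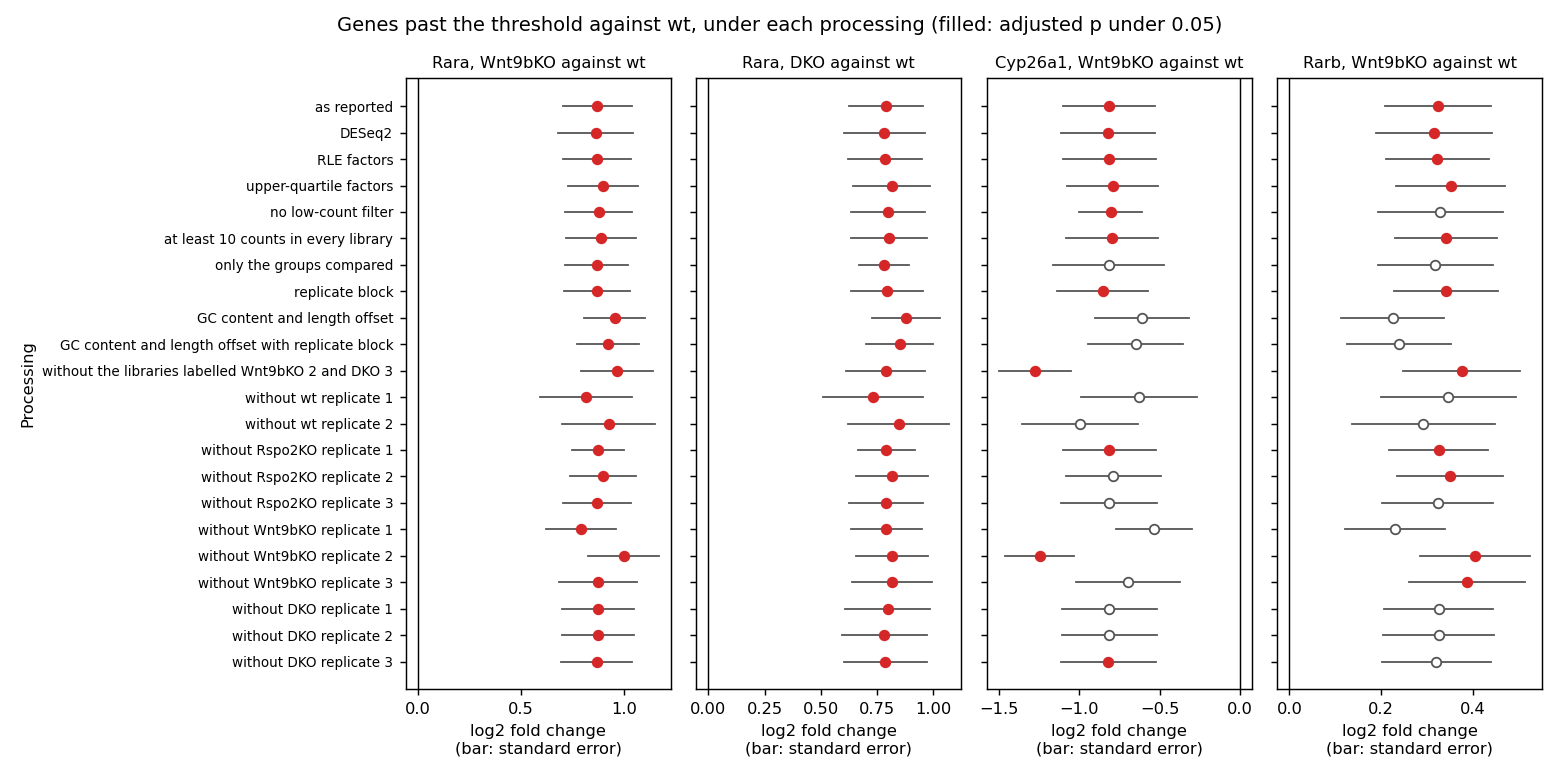
Log2 fold change (point) and standard error (bar) of the 3 genes called against wt, as reported and under each of the 21 alternatives. *Rara* stays past the adjusted threshold (filled points) in all of them in Wnt9bKO and DKO, whereas *Cyp26a1* and *Rarb* in Wnt9bKO each pass in 10 of the 21.

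Other genes that carry retinoids into the cell, shuttle them inside it or answer to the receptors were taken from a list of 50 genes found in the annotation, of which 34 passed the filter on low counts. In Wnt9bKO 12 of the 34 were called, 5 higher and 7 lower, and in DKO 9, 4 higher and 5 lower, so that the share was near that of all genes. In Rspo2KO 0 of the 34 were called by edgeR, beside 0.0346% of all genes. DESeq2 called 0 of the 29 to which it gave an adjusted p, beside 1.4% of all genes. At an unadjusted p below 0.05 in edgeR's test there were 3, and the share of all genes at that threshold was not counted. The median log2 fold change of the list was -0.04 in Wnt9bKO, 0.02 in Rspo2KO and 0.07 in DKO. Without the libraries labelled Wnt9bKO 2 and DKO 3, 9 were called in Wnt9bKO and 8 in DKO, beside 29.7% and 25.6% of all genes.

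The intracellular carriers *Fabp5* and *Crabp2* were lower in both genotypes with a *Wnt9b* mutation, while *Crabp1* was not called in either. *Fabp5*, which can deliver retinoic acid to the nuclear receptor PPARD, was at 186 and 211 CPM in wt, 88.9, 88.9 and 86.9 CPM in Wnt9bKO, 89.0, 92.1 and 114 CPM in DKO, and 159 to 194 CPM in Rspo2KO. It fell by 1.17 ± 0.12 on the log2 scale in Wnt9bKO (2.25-fold, adjusted p = 1.84e-05) and by 1.02 ± 0.12 in DKO (adjusted p = 6.5e-05). *Crabp2*, which hands retinoic acid to the RARs, was at 354 and 363 CPM in wt, 193, 205 and 232 CPM in Wnt9bKO, and 199, 207 and 283 CPM in DKO. It fell by 0.77 ± 0.16 in Wnt9bKO (adjusted p = 0.00219) and 0.64 ± 0.16 in DKO (adjusted p = 0.00814). No library of Wnt9bKO or DKO reached the wt level for *Fabp5* or *Crabp2*.

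*Stra6*, the cell-surface receptor for retinol bound to its plasma carrier, moved the other way. It was at 30.4 and 31.7 CPM in wt, 58.6, 46.9 and 45.1 CPM in Wnt9bKO, and 56.7, 47.3 and 36.5 CPM in DKO, and rose by 0.69 ± 0.19 (adjusted p = 0.0129) and 0.59 ± 0.19 (adjusted p = 0.0321). The call of *Stra6* ended without wt 1 or wt 2 in Wnt9bKO (adjusted p = 0.0908 and 0.0705) and without wt 1, wt 2, DKO 1 or DKO 2 in DKO (0.43 to 0.62, adjusted p 0.068 to 0.168). *Nr2f2*, an orphan nuclear receptor (COUP-TFII) that responds to retinoic acid and also binds its response elements, was at 48.3 and 46.5 CPM in wt, 90.9, 85.3 and 118 CPM in Wnt9bKO, and 97.0, 84.9 and 120 CPM in DKO. It rose by 1.05 ± 0.21 (2.07-fold, adjusted p = 0.00169) and 1.09 ± 0.21 (2.13-fold, adjusted p = 0.00179). *Fabp5* and *Nr2f2* passed in all 21 alternatives in both comparisons, and *Crabp2* in all 21 in Wnt9bKO and in 20 in DKO, the exception being without wt 2 (adjusted p = 0.0549).

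The RXR partners did not move as a group. *Rxrb* was at 62.4 and 60.1 CPM in wt, 53.6, 42.8 and 39.7 CPM in Wnt9bKO, and 49.8, 48.2 and 43.1 CPM in DKO, and fell by 0.43 ± 0.13 (adjusted p = 0.0183) and 0.38 ± 0.13 (adjusted p = 0.0383). The call of *Rxrb* passed in 17 of 21 alternatives in Wnt9bKO and in 10 of 21 in DKO, and in DKO it ended without the libraries labelled Wnt9bKO 2 and DKO 3 (-0.33, adjusted p = 0.104). *Rxra* had log2 fold changes of 0.24 ± 0.11 and 0.25 ± 0.11 that did not pass (adjusted p = 0.126 and 0.122), although it passed with the GC content and length offset (0.27 and 0.29, adjusted p = 0.0314 and 0.0253). *Rxrg* was at 1.03 to 2.64 CPM in all libraries and did not pass. Of the enzymes that set the supply of retinaldehyde, *Rdh10*, which oxidizes retinol, had log2 fold changes of -0.17 ± 0.12 in Wnt9bKO and -0.27 ± 0.12 in DKO (adjusted p = 0.312 and 0.13), and *Dhrs3*, which reduces retinaldehyde back, had 0.26 ± 0.24 and 0.19 ± 0.24 (adjusted p = 0.442 and 0.597).

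**Figure D4:**
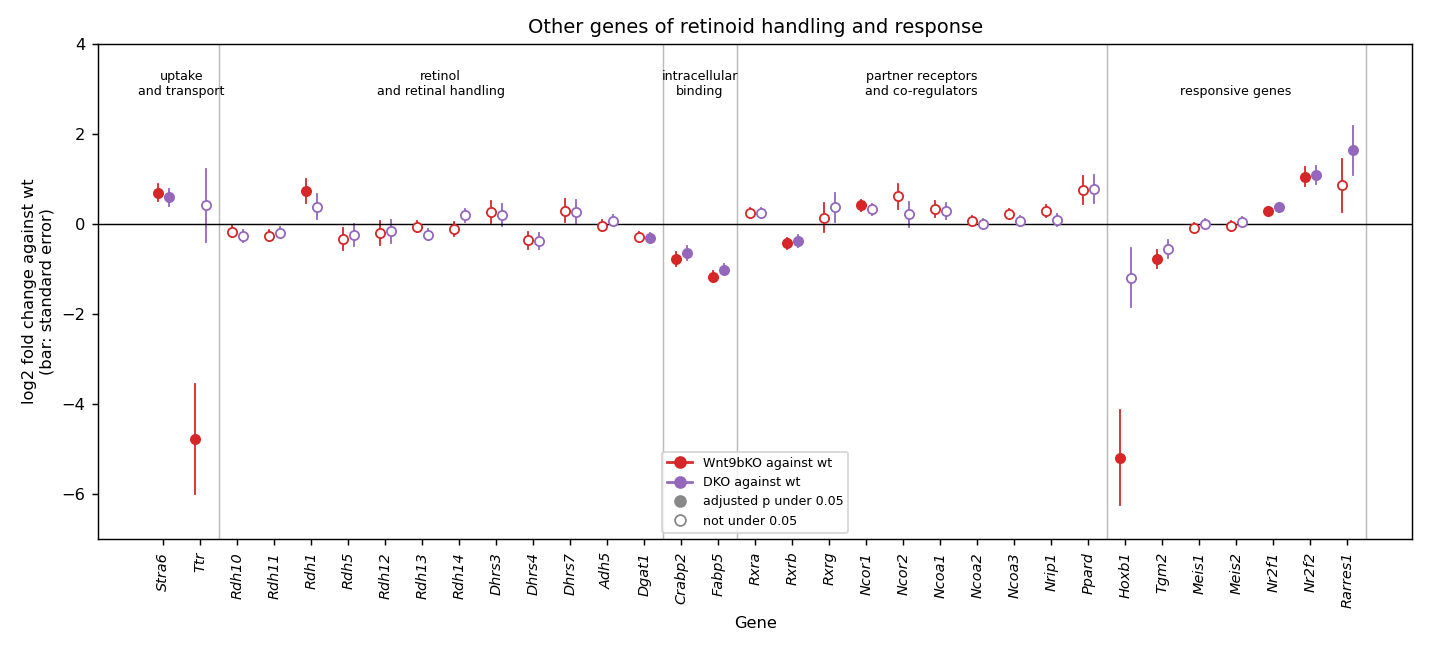
Log2 fold change against wt (point) and standard error (bar) of 33 further retinoid genes tested, in Wnt9bKO and DKO, grouped by role, with filled points where the adjusted p is below 0.05. *Crabp2* and *Fabp5* lie below 0 and *Stra6* and *Nr2f2* above 0 in both genotypes. The fitted values of *Hoxb1* and *Ttr* in Wnt9bKO come from at most 7 counts per library and depend on the prior count.

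Among retinoic acid-responsive genes, *Hoxb1*, a gene of the hindbrain whose enhancers hold RAR elements, had 12 and 36 counts in wt, 28, 33 and 30 in Rspo2KO, 1, 0 and 1 in Wnt9bKO, and 0, 25 and 11 in DKO. It was named because it is the list's largest change in Wnt9bKO, after its values were seen. The DKO libraries ranged from 0 to above the lower wt library. The 4 markers of hindbrain and second arch, *Hoxb1* among them, summed to 7.14 to 10.3 CPM in wt, 10.9 to 11.7 CPM in Rspo2KO, 1.17 to 1.38 CPM in Wnt9bKO and 2.99 to 9.64 CPM in DKO. Forebrain markers ran the other way, with 4 of 4 called higher in Wnt9bKO and in DKO and sums of 38.1 to 42.7 CPM in wt, 72.0 to 130.5 CPM in Wnt9bKO, 76.7 to 93.9 CPM in DKO and 43.9 to 65.0 CPM in Rspo2KO. *Lhx2* counts among both the forebrain and the eye field markers. Erythroid markers summed to 3872 to 4805 CPM in wt, 4372 to 5652 CPM in Rspo2KO, 1715 to 2263 CPM in Wnt9bKO and 1665 to 2737 CPM in DKO. The forebrain and erythroid differences, like that of the small nuclear RNAs, moved with the changes of *Rara*, *Cyp26a1*, *Fabp5* and *Nr2f2* between genotypes. The hindbrain and second arch markers did so in Wnt9bKO only, since the range of DKO overlapped that of wt. In Rspo2KO, where *Rara*, *Cyp26a1*, *Fabp5* and *Nr2f2* were not called, the forebrain sums also lay above those of wt. Within Wnt9bKO, library 2 had the highest forebrain sum, 130.5 CPM, and also the highest *Cyp26a1* level, 12.2 CPM. What part any of these differences had in the changes of *Rara*, *Cyp26a1*, *Fabp5* and *Nr2f2* was not tested.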

How the data were processed

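RNA was sequenced from E10.5 facial process explants, and per the study's methods the authors used Cutadapt to trim the single-end reads, STAR to map them to GRCm38 and HTSeq-Count to count them per gene. The authors deposited these raw counts, 1 file per library, without normalization. Genotype and number came from the sample labels (wt 2, the others 3 libraries). Of 38561 genes, 36639 matched the GENCODE annotation of GRCm38, from which names, exon lengths and GC content were taken. Whether counting used strand is not given in the sources used here.

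Low genes were removed by filterByExpr (edgeR, by genotype), and the rest were scaled by TMM and fitted with edgeR's quasi-likelihood model to all 11 libraries (R 4.3.3, edgeR 4.0.16), since wt has only 2. Adjusted p-values are Benjamini-Hochberg values over 17317 genes. The study's methods name DESeq2, used here as an alternative (1.42.0). The other alternatives were RLE and upper-quartile factors, no filter on low counts, a stricter one (10 or more counts in each library), a model of the compared groups alone, a block for the replicate number, an offset by loess (span 0.3) on GC content and length (known for 98.3% of genes tested) with and without the block, leaving out Wnt9bKO 2 and DKO 3, and leaving out each library. Depth of 11136166 to 18017344 counts makes 3 counts worth 0.16 to 0.268 CPM. On simulated data with these depths, 196 of 200 genes changed in DKO were recovered among 16965 genes with 12 false calls. Those genes were set to change 2- or 3-fold, more than any member did against wt, and genes at low levels were not among them. The simulated libraries held no difference tied to GC content. Recovery at the levels, fold changes and spread of the members was not tested separately.

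The members and gene lists were chosen with earlier results of these data known. All 10 members are named, and of the other retinoid genes *Rdh10*, *Dhrs3*, *Crabp2*, *Rxra*, *Rxrb*, *Rxrg*, *Stra6* and, per comparison with wt, the 3 called genes with the smallest p, except 1 gene that is not reported here. The similar genes are the 2 nearest to each member called against wt. Of 51 names written for the wider list, 50 matched. Replicate numbers were not taken to pair the libraries, since the study's methods name no pairing. Over 15 same-numbered pairs, the correlations of deviations from the group means were -0.105 to 0.236, with 3 over 0.1. Differently numbered pairs were not compared, so these values cannot decide whether the libraries are paired. Figures used Python 3.11.15 with matplotlib 3.10.9.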

Additional observations from a re-analysis of the deposited data

How the results depend on the processing

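Of 55 gene-level results, 8 changed direction in at least 1 of the 21 alternatives, and no reversal passed the threshold. *Rara* against wt kept direction and call throughout in Wnt9bKO and DKO. Members called in Wnt9bKO numbered 1 in place of 3 with only the groups compared (27.5% of all genes) and with the GC content and length offset, without or with the replicate block (33.7% and 35%). By the DEG threshold the offset left 1 in place of 3 in Wnt9bKO and 1 in place of 2 in DKO, and with the block added 2 and 1. Members called in DKO were 2 with DESeq2 (30.1% of all genes), 4 with no low-count filter (18.1%), 4 with only the groups compared (34.6%) and 2 with the replicate block (29.6%), against 1 (27.5%). With no low-count filter, 2 wider genes were called in Rspo2KO and 1 member in DKO against Wnt9bKO, in place of 0. DKO against Rspo2KO gave 1 in place of 2 with the offset and without the libraries labelled Wnt9bKO 2 and DKO 3.

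The replicate numbers were not taken to pair the libraries. With the replicate block, members called numbered 4 in Wnt9bKO, 2 in DKO and 2 in DKO against Rspo2KO, wider genes 12 in Wnt9bKO and 10 in DKO, and 1 member passed the DEG threshold in Rspo2KO in place of 0, also with the offset added.

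Leaving out 1 library at a time gave 1 to 4 members called in Wnt9bKO, 1 to 3 in DKO and 0 to 3 in DKO against Rspo2KO, 1 to 4 members past the DEG threshold in Wnt9bKO and 1 to 3 in DKO, and 5 to 16 wider genes called in Wnt9bKO and 4 to 12 in DKO, with the fewest without wt 1 (5 and 4) and without wt 2 (8 and 4). The log2 fold changes that reversed ranged from -0.54 to 0.56 (*Aldh1a2*), -1.46 to 0.064 (*Cyp26b1*), -0.34 to 0.087 (*Rarg*), -0.12 to 0.49 (*Dhrs3*) and -0.12 to 0.37 (*Rxrg*) in Wnt9bKO, -0.16 to 0.22 (*Cyp26a1*) and -0.007 to 0.36 (*Cyp26c1*) in Rspo2KO, and -0.13 to 0.38 (*Cyp26b1*) in DKO. Without the libraries labelled Wnt9bKO 2 and DKO 3, *Cyp26b1* was at 0.035 in Wnt9bKO and -0.099 in DKO and *Rarg* at 0.058 in Wnt9bKO. The cause of these changes was not tested, beyond the libraries left out.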
